A study of Mus musculus with 4 samples.

Results

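The genes described are the 30 that carry glucose into the heart muscle cell, turn it into pyruvate and exchange lactate and pyruvate across membranes: 3 glucose carriers, the enzymes of glycolysis with their tissue isozymes, the lactate dehydrogenases, 2 monocarboxylate carriers, the 2 subunits of the mitochondrial pyruvate carrier and the red-cell enzyme Bpgm. They were taken by gene symbol from a table of raw counts for 54752 gene identifiers, and all 30 had enough counts to be tested. The symbol Aldoa names 2 gene models in GENCODE M21; the model described is ENSMUSG00000030695, and the second had between 1 and 13 counts in each library. Total RNA from hearts of mice at postnatal day 14 was sequenced in 4 libraries, 2 labelled wild type and 2 labelled Carm1 mutant. The allele, the cells in which Carm1 is altered, the strain and whether any hearts were pooled have no entry in the labels, and the series text calls the hearts neonatal although the labels give day 14. Library totals were 21719161 and 20778420 counts for the wild-type pair, against 22217442 and 11677604 for the mutant-labelled pair. Whether each library is a different animal is not in the labels; the p-values then reflect only how far these libraries differ, which may be technical.

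Glycolysis splits a hexose into pyruvate in the cytosol. Hexokinase traps glucose inside the cell, phosphofructokinase commits it to breakdown, and pyruvate kinase closes the route. Most steps are served by several isozymes encoded by separate genes, 1 of them favoured in striated muscle and others in brain, liver or dividing cells. The heart draws much of its energy from glucose and lactate before birth and moves towards fatty acids during the weeks after it, while the insulin-responsive glucose carrier and muscle isozymes gain over fetal forms. Lactate crosses the plasma membrane on monocarboxylate carriers, and pyruvate enters mitochondria through a carrier made of 2 subunits.

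Several facts of the series bear on all results. Carm1, a protein arginine methyltransferase, had 45.9 and 52.3 CPM (counts relative to library size after TMM scaling) in the wild-type pair, against 35.8 and 31.8 CPM in the mutant-labelled pair (edgeR FDR 0.114, with a log2 fold change of −0.54 and an SE of 0.19). A lower level of Carm1 was thus not called, and gene counts cannot show a deleted exon. Xist was at most 0.766 CPM in wild type and at least 289 CPM in the mutant-labelled libraries, and 4 Y-linked genes had the opposite pattern, so genotype label and sex cannot be told apart. Of 15283 genes tested, 426 were called higher and 700 called lower in the mutant-labelled pair at an edgeR FDR below 0.05, which is 2.79% and 4.58% of them and 7.37% in all. Heart muscle markers were high in every library: all 10 cardiomyocyte markers were measured, and together they made up 91695 and 77799.7 CPM in the wild-type pair, against 46433 and 49735 CPM in the mutant-labelled pair. Of those 10, 1 was called lower and 0 higher by the edgeR test. The 7 fibroblast markers summed to 3158 and 3673 CPM in the wild-type pair, against 5242 and 5456 CPM in the mutant-labelled pair. The 7 endothelial markers summed to 1014 and 1318 CPM in the wild-type pair, against 1738 and 1506 CPM in the mutant-labelled pair, and 0 of either list were called. The 8 markers of cycling cells were all called higher, from 26.0 and 35.4 to 119 and 127 CPM. The other lists of cell markers had few calls: atrial cardiomyocyte 1 higher and 2 lower of 5 tested, neuron and Schwann 1 higher of 6, and macrophage, smooth muscle and pericyte, adipocyte and skeletal muscle 0 of 8, 7, 1 and 5, with Myh1 and Myh4 of skeletal muscle at 0; no neutrophil marker was high enough to test. The part of these shifts in the results was not tested. In RNA from bulk heart, fewer cells of a type and less of an RNA in each cell cannot be told apart.

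Part of the glucose-use genes fell, and none was called higher. By the edgeR test 7 of the 30 fell, 0 rose and 23 were not called. The 7 were Slc2a4, Hk2, Pfkm, Pgk1, Pgam1, Pkm and Slc16a1, which is 23.3% of the 30 beside 4.58% lower calls among all genes tested. Level bears on this share: of 1234 genes with a mean of at least 100 CPM 15.1% were called lower, and of the 17 glycolysis genes above that level 5 were, or 29.4%. The median log2 fold change of the 30 genes was −0.51, against 0.02 for all genes tested and −0.34 for the abundant ones. The 2 wild-type libraries lay above both mutant-labelled libraries for 21 of the 30 genes, below both for 4 and overlapped them for 5. Among all genes tested 59.0% did not overlap, 28.7% lower and 30.3% higher. Only Slc16a3 had an unadjusted p below 0.05 in the higher direction, and 15 genes had one in the lower direction. Among all 15283 genes tested, 2004 had one in the higher direction and 2241 in the lower. DESeq2 called 13 of the 30 lower and 0 higher, where it called 7.92% of the 14097 genes with an adjusted p lower and 4.20% higher. The limma-voom fit called 7 lower and 0 higher, and it called 1078 of the 1126 genes that edgeR called. The share of all genes that limma-voom called in each direction is not given here. With library totals alone edgeR called 2 lower and 0 higher, beside 1.35% lower and 7.78% higher calls among all genes. Which genes were called depended on the library left out. The median log2 fold change of the 30 genes was −0.37 without wild type replicate 1 and −0.75 without wild type replicate 2. It was −0.48 without mutant-labelled replicate 1 and −0.58 without mutant-labelled replicate 2. In such a fit the lone library of a group is assumed to vary like the pair of the other group.

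**Figure D1:**
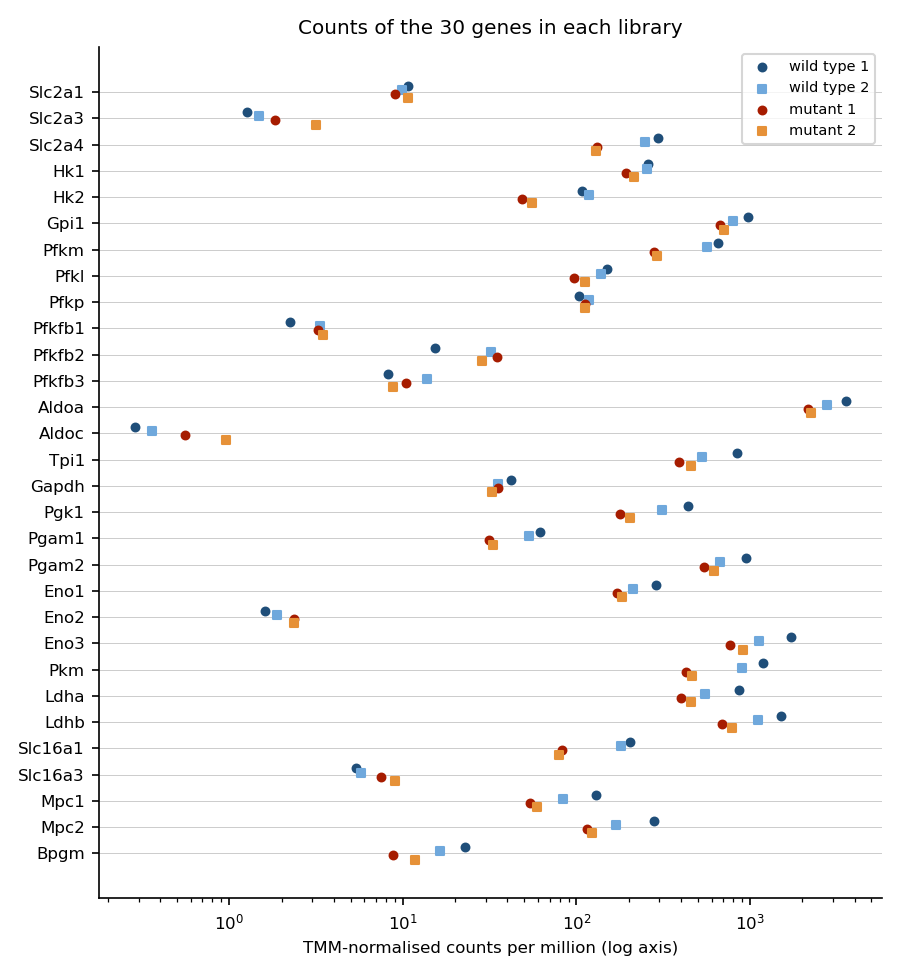
TMM-normalised CPM of the 30 genes in each of the 4 libraries, on a log axis, in the order of the pathway; each point is 1 library. The values span from Aldoc, at less than 1 CPM, to Aldoa, and the 2 mutant-labelled points lie below both wild-type points for 21 genes.

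**Figure D2:**
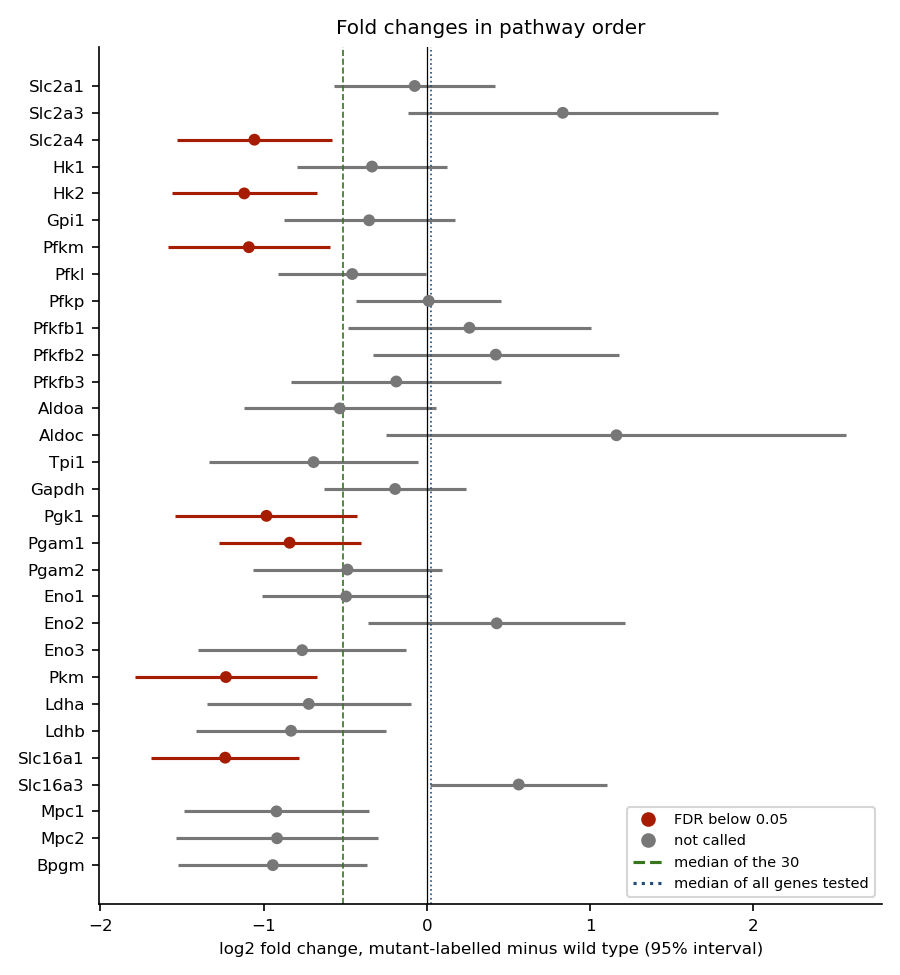
Log2 fold change of mutant-labelled against wild-type libraries with its 95% interval from the edgeR fit, in pathway order, with the 7 genes at an FDR below 0.05 in red. The dashed line is the median of the 30 genes, −0.51, and the dotted line that of all genes tested, 0.02.

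The called genes were read against the DNA just before their start sites. RefSeq windows (build GRCm38.p6, the assembly also named mm10) were found for 28 of the 30 genes, not for Slc2a3 and Slc2a4, and the 250 bases before each start were searched on both strands for ACGTG, a core bound by hypoxia-inducible factors, which are known regulators of glycolytic genes. The letters were chosen with the calls known. A CACGTG, the E-box read by Myc and related factors, holds the core on both strands and counts as 2. The letters stood in at least 1 window of 12 of the 28 genes, or 42.9%, against 18.5% of all 27025 genes with a window. These were all 6 called genes that had a window and 6 of the 22 genes not called. Since the letters were chosen with the calls known, this split is not a test. Pfkm has 4 windows and Pkm 2, and for both genes some windows held no match. Windows of 3 called genes are printed to show where the letters lie, with Ldha, which was not called and has the most matches, beside them. Each is written 5′ to 3′ on the gene's strand, and capitals mark ACGTG or its reverse complement.
Hk2, chr6:82774455-82774704, minus strand: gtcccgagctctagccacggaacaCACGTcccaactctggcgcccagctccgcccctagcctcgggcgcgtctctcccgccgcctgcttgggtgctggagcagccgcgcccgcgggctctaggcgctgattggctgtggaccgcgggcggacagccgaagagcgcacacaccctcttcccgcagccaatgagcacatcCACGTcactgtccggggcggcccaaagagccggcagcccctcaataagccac
Pgk1, chrX:106186850-106187099, plus strand: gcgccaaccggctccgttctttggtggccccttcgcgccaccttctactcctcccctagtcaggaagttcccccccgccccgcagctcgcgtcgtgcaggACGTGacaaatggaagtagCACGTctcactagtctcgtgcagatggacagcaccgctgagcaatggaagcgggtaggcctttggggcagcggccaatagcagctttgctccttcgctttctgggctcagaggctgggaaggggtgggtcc
Slc16a1, chr3:104638414-104638663, plus strand: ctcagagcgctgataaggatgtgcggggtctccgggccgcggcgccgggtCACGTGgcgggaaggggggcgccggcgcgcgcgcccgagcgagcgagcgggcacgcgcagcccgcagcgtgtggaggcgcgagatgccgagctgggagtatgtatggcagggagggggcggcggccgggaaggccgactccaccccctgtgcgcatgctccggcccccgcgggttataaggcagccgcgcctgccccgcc
Ldha, chr7:46845554-46845803, plus strand: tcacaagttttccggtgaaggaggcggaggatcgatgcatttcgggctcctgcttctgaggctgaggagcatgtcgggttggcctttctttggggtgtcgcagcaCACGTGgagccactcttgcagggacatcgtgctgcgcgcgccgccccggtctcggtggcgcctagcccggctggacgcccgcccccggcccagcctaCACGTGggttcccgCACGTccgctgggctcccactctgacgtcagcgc
Hk2 had 2 matches that lay apart, Pgk1 2 close together, Slc16a1 a single CACGTG, and Ldha 2 copies of CACGTG and 1 further match. Genes differ in how many windows they have, and a match is a description of the letters only.

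Glucose enters through carriers of the Slc2a family, and the insulin-responsive form fell. Gene positions are those of GENCODE M21 on GRCm38. Slc2a4 (ENSMUSG00000018566, chromosome 11, 69942539 to 69948188, minus strand), which moves to the cell surface of muscle and fat in answer to insulin, had wild-type values of 295 and 249 CPM and mutant-labelled values of 131 and 130.4 CPM. Both mutant-labelled values lay below both wild-type values, and the gene fell from 272 ± 32.1 to 131 ± 0.656 CPM (mean ± SD, n = 2 each; a log2 fold change of −1.06 with SE 0.20 and FDR 0.0270 by edgeR). Slc2a1 (ENSMUSG00000028645, chromosome 4, 119108711 to 119137983, plus strand) is the carrier of the fetal heart and the blood-brain barrier. It had 9.01 and 10.7 CPM in the mutant-labelled pair, beside 10.8 and 9.91 CPM in the wild-type pair. Those groups overlapped, with a 95% interval of the log2 fold change from −0.57 to 0.42 (edgeR FDR 0.849), and library totals alone turned its sign to 0.32. Slc2a3, a high-affinity carrier of neurons and blood cells, had few counts, at 1.26 and 1.48 CPM in the wild-type pair, against 1.83 and 3.17 CPM in the mutant-labelled pair, from 22 and 29 to 46 and 43 counts (edgeR FDR 0.231, with a log2 fold change of 0.83 and an SE of 0.41). Per kb of exon Slc2a4 was the main form in every library. Its share of the 3 carriers was 96.3% and 95.9% in the wild-type pair, against 93.0% and 91.5% in the mutant-labelled pair, and that of Slc2a1 was 3.48% and 3.78% in the wild-type pair, against 6.33% and 7.43% in the mutant-labelled pair. The groups did not overlap in either share, although Slc2a1 itself was not called.

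Of the pair of hexokinases, the muscle form fell and the other was not called. Hk2 (ENSMUSG00000000628, chromosome 6, 82725025 to 82774454, minus strand), the insulin-regulated hexokinase of muscle, had wild-type values of 107 and 118 CPM and mutant-labelled values of 48.7 and 55.2 CPM. The gene was lower in both mutant-labelled libraries and fell from 113 ± 7.51 to 51.9 ± 4.64 CPM (a log2 fold change of −1.12 with SE 0.19 and FDR 0.0205 by edgeR). Hk1 (ENSMUSG00000037012, chromosome 10, 62268855 to 62379908, minus strand), the form bound to mitochondria in most tissues, had 193 and 214 CPM in the mutant-labelled pair, beside 259.7 and 255 CPM in the wild-type pair. Those groups did not overlap, but the difference was not called (edgeR FDR 0.310, with a log2 fold change of −0.34 and an SE of 0.20), and its sign turned to 0.06 with library totals alone. As a share of both per kb of exon, Hk2 made up 37.2% and 39.8% in the wild-type pair, against 26.5% and 26.9% in the mutant-labelled pair. The share is formed within a library and does not depend on scaling between libraries. It went from 38.5 ± 1.90% to 26.7 ± 0.320% (SD, n = 2 each). A share can still carry a bias of its library towards long or short genes. Over all genes tested, the Spearman correlation of a library's deviation from the mean with exon length differed between libraries. It was −0.301 and 0.245 in the wild-type pair, against 0.182 and −0.0149 in the mutant-labelled pair. The part of this bias in the shares was not tested. Gpi1, which turns glucose phosphate into fructose phosphate, had 970.1 and 798 CPM in the wild-type pair, against 673 and 710.3 CPM in the mutant-labelled pair (a log2 fold change of −0.35 with SE 0.23 and FDR 0.347 by edgeR), and library totals alone gave 0.05.

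Phosphofructokinase, the committing step, is made of muscle, liver and platelet subunits encoded by Pfkm, Pfkl and Pfkp. Pfkm (ENSMUSG00000033065, chromosome 15, 98092589 to 98132451, plus strand) had wild-type values of 655 and 566 CPM and mutant-labelled values of 280.4 and 293 CPM. Both wild-type values lay above both mutant-labelled values, and the gene fell from 610.3 ± 63.2 to 287 ± 8.76 CPM (edgeR FDR 0.0278, with a log2 fold change of −1.09 and an SE of 0.21). Pfkl (ENSMUSG00000020277, chromosome 10, 77986947 to 78010083, minus strand) had 97.2 and 112 CPM in the mutant-labelled pair, beside 149 and 138 CPM in the wild-type pair (a log2 fold change of −0.46 with SE 0.20 and FDR 0.177 by edgeR). Pfkp (ENSMUSG00000021196, chromosome 13, 6579768 to 6648777, minus strand) had 103 and 119 CPM in the wild-type pair, against 112 and 111 CPM in the mutant-labelled pair, with overlapping groups and a 95% interval from −0.43 to 0.45. Its sign was not stable: it was −0.003 with DESeq2 size factors and 0.40 with library totals alone. Per kb of exon Pfkm led in every library, with 86.7% and 85.1% in the wild-type pair, against 78.5% and 77.7% in the mutant-labelled pair. Pfkl made up 9.89% and 10.4% in the wild-type pair, against 13.6% and 14.9% in the mutant-labelled pair, and Pfkp 3.40% and 4.46% in the wild-type pair, against 7.84% and 7.37% in the mutant-labelled pair. All 3 shares were without overlap between the groups.

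The Pfkfb genes encode the bifunctional enzymes that make and remove fructose bisphosphate of the regulatory kind, the strongest activator of phosphofructokinase. None of the 3 measured was called. Pfkfb2 (ENSMUSG00000026409, chromosome 1, 130689182 to 130729253, minus strand), the heart form, had wild-type values of 15.2 and 32.0 CPM and mutant-labelled values of 34.7 and 28.6 CPM. Wild type replicate 1 was the lowest of the 4 libraries; without it the log2 fold change of 0.42 became −0.03, and without wild type replicate 2 it was 1.03 (edgeR FDR 0.00163). Pfkfb3 (ENSMUSG00000026773, chromosome 2, 11471433 to 11554077, minus strand), the inducible form, had 10.4 and 8.76 CPM in the mutant-labelled pair, beside 8.24 and 13.7 CPM in the wild-type pair (edgeR FDR 0.703), and Pfkfb1 (ENSMUSG00000025271, chromosome X, 150588229 to 150643878, plus strand), the form of liver and skeletal muscle, 2.23 and 3.32 CPM in the wild-type pair, against 3.23 and 3.46 CPM in the mutant-labelled pair (edgeR FDR 0.638). Of these 3 genes Pfkfb2 led per kb of exon, with 56.0% and 62.6% in the wild-type pair, against 68.6% and 66.2% in the mutant-labelled pair. Pfkfb4 was not counted in these shares.

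At the aldolase and triose phosphate steps no gene was called. Aldoa (ENSMUSG00000030695, chromosome 7, 126795234 to 126800751, minus strand), the aldolase of muscle, had the highest level per kb of exon of the 30 genes, a mean of 1094 RPKM (CPM per kb of exon) in wild type, with wild-type values of 3591 and 2780.5 CPM and mutant-labelled values of 2149 and 2252 CPM. Both mutant-labelled values were below the wild-type pair, with an edgeR FDR of 0.216 (log2 fold change −0.53, SE 0.25). Aldoc, the aldolase of brain, had few counts, 5 and 7 counts in the wild-type pair, against 14 and 13 in the mutant-labelled pair (edgeR FDR 0.257), and made up at most 0.0379% of both per kb of exon. Tpi1, which interconverts the triose phosphates, had 389.5 and 459 CPM in the mutant-labelled pair, beside 845 and 527 CPM in the wild-type pair (edgeR FDR 0.151, with a log2 fold change of −0.69 and an SE of 0.28).

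Gapdh, the dehydrogenase of the triose step and a common reference gene, had a low level per kb of exon, a mean of 9.41 RPKM in wild type beside 249 RPKM for Tpi1 and 168 RPKM for Pgk1. Gapdh (ENSMUSG00000057666, chromosome 6, 125161715 to 125166467, minus strand) held 738 and 696 counts in the wild-type pair, against 881 and 445 in the mutant-labelled pair, or 42.2 and 35.5 CPM in the wild-type pair, against 35.1 and 32.8 CPM in the mutant-labelled pair (a log2 fold change of −0.19 with SE 0.19 and FDR 0.541 by edgeR). The mouse genome carries many processed copies of Gapdh. In all 157 annotated pseudogenes matched its transcript with a minimum identity of 90% and a minimum of 50% of the copy covered. Among them Gm28580, Gm42850 and Gm45725 are annotated as unprocessed and had at most 1 count in a library. Together the 157 copies held 7948 and 6859 counts in the wild-type pair, against 7396 and 4706 in the mutant-labelled pair. That is 10.8, 9.85, 8.40 and 10.6 times the counts of the gene itself. The largest, Gm5559 on chromosome 5, Gm13394 on chromosome 2 and Gm12033 on chromosome 11, are each 99.9% identical to Gapdh over their whole length; Gm5559 alone had 2856, 2509, 2818 and 1658 counts. Of the 157 copies, 31 had at least 5% of the counts of Gapdh in some library. The treatment of reads that match several places is not stated by the labels, so the level of Gapdh is uncertain. With its copies added, its log2 fold change was −0.32 in place of −0.19 (edgeR FDR 0.406), and with library totals alone 0.21.

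Such copies touched few of the other genes. In all, 12 of the 30 had a processed copy by this match, and 196 copies were found, the unprocessed ones of Gapdh among them. Mpc1-ps on chromosome 12, identical to Mpc1 over 79.1% of its length, had 2154 and 1481 counts in the wild-type pair, against 1178 and 694 in the mutant-labelled pair, beside 2281, 1645, 1354 and 805 for Mpc1. With its copies added Mpc1 had a log2 fold change of −0.97 (edgeR FDR 0.0613). For the remaining 10 genes the copies held at most 2.96% of the counts of gene and copies together. Gm1840, the copy of Gpi1 on chromosome 8 and 97.7% identical to it, was chosen after its values were seen. It had 86 and 70 counts in the wild-type pair, against 499 and 231 in the mutant-labelled pair (edgeR FDR 0.00769, with a log2 fold change of 2.12 and an SE of 0.24), while Gpi1 itself was not called.

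**Figure D3:**
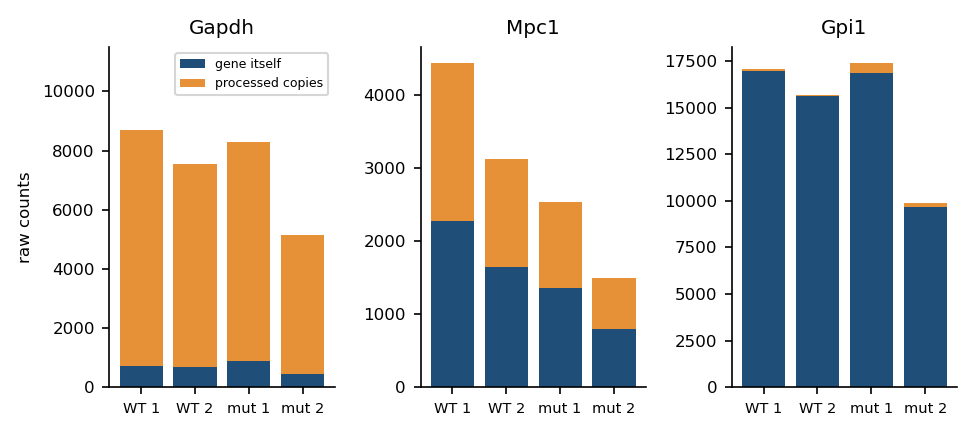
Raw counts of Gapdh, Mpc1 and Gpi1 (blue) and of their processed copies (orange, stacked) in each library; the vertical scale differs between panels and starts at 0. Copies hold most of the Gapdh reads, close to an equal share for Mpc1, and a small share for Gpi1 that is larger in both mutant-labelled libraries.

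The payoff phase held 3 of the called genes. Pgk1 (ENSMUSG00000062070, chromosome X, 106187100 to 106203699, plus strand), an X-linked kinase that makes ATP from bisphosphoglycerate, had wild-type values of 441 and 313 CPM and mutant-labelled values of 178 and 204 CPM. It fell from 377 ± 90.4 to 191 ± 18.4 CPM, at the edge of the threshold (edgeR FDR 0.0498, with a log2 fold change of −0.98 and an SE of 0.24), and its FDR was 0.0531 with DESeq2 size factors and 0.0502 with the counts of its 4 processed copies added. Since the groups differ in sex transcripts, genotype label and sex cannot be told apart for this X-linked gene. Pgam1 (ENSMUSG00000011752, chromosome 19, 41911923 to 41918660, plus strand), the broadly expressed phosphoglycerate mutase, had 31.4 and 32.8 CPM in the mutant-labelled pair, beside 62.0 and 53.0 CPM in the wild-type pair. It fell from 57.5 ± 6.35 to 32.1 ± 1.03 CPM (a log2 fold change of −0.84 with SE 0.19 and FDR 0.0389 by edgeR) and was not called with upper-quartile factors (edgeR FDR 0.0503). Pgam2 (ENSMUSG00000020475, chromosome 11, 5801640 to 5803733, minus strand), the muscle form, had 954 and 674 CPM in the wild-type pair, against 543 and 619 CPM in the mutant-labelled pair, which was not called (edgeR FDR 0.251, with a log2 fold change of −0.49 and an SE of 0.25). Pgam2 was by far the main mutase per kb of exon, with 97.3% and 96.8% in the wild-type pair, against 97.6% and 97.8% in the mutant-labelled pair. Bpgm, which makes the bisphosphoglycerate that lowers the oxygen affinity of haemoglobin, had wild-type values of 22.9 and 16.3 CPM and mutant-labelled values of 8.77 and 11.7 CPM (a log2 fold change of −0.94 with SE 0.25 and FDR 0.0603 by edgeR). The 8 erythroid markers with a row summed to 711 and 508 CPM in the wild-type pair, against 539.6 and 864 CPM in the mutant-labelled pair, and 0 of the 6 tested were called.

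Enolase and pyruvate kinase close the route. Eno3 (ENSMUSG00000060600, chromosome 11, 70657202 to 70662513, plus strand), the muscle enolase, had 762 and 907 CPM in the mutant-labelled pair, beside 1712 and 1122 CPM in the wild-type pair (edgeR FDR 0.123, with a log2 fold change of −0.76 and an SE of 0.28). Eno1, the form of most tissues, had 286 and 213 CPM in the wild-type pair, against 171 and 183 CPM in the mutant-labelled pair (a log2 fold change of −0.49 with SE 0.22 and FDR 0.196 by edgeR), and Eno2, the neuronal form, wild-type values of 1.60 and 1.89 CPM and mutant-labelled values of 2.35 and 2.36 CPM (edgeR FDR 0.451). The wild-type pair spread widely for Eno3, and neither it nor the other enolases passed. Of the enolases per kb of exon, Eno3 made up 94.8% and 94.2% in the wild-type pair, against 93.1% and 93.8% in the mutant-labelled pair. Pkm (ENSMUSG00000032294, chromosome 9, 59656368 to 59679375, plus strand), the pyruvate kinase of muscle and proliferating cells, had 425 and 465 CPM in the mutant-labelled pair, beside 1188 and 900.4 CPM in the wild-type pair. The gene fell from 1044 ± 204 to 445 ± 27.8 CPM (edgeR FDR 0.0275, with a log2 fold change of −1.23 and an SE of 0.24). Its adult and fetal forms differ by a single exon, which whole-gene counts do not separate.

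Of the lactate and pyruvate genes, a carrier of the plasma membrane fell. Slc16a1 (ENSMUSG00000032902, chromosome 3, 104638668 to 104658462, plus strand), the monocarboxylate carrier of heart and most tissues, had 202 and 179 CPM in the wild-type pair, against 82.4 and 79.7 CPM in the mutant-labelled pair. It fell from 191 ± 16.3 to 81.1 ± 1.90 CPM (a log2 fold change of −1.24 with SE 0.20 and FDR 0.0173 by edgeR). Slc16a3 (ENSMUSG00000025161, chromosome 11, 120948480 to 120960868, plus strand), the low-affinity carrier of glycolytic cells, lay the other way, at wild-type values of 5.38 and 5.77 CPM and mutant-labelled values of 7.50 and 9.06 CPM. That is 94 and 113 counts against 188 and 123; the groups did not overlap, but the difference was not called (edgeR FDR 0.167, with a log2 fold change of 0.56 and an SE of 0.23). The share of Slc16a3 in both carriers per kb of exon was 2.16% and 2.61% in the wild-type pair, against 7.04% and 8.64% in the mutant-labelled pair. Ldhb, the heart subunit of lactate dehydrogenase, had 686 and 783 CPM in the mutant-labelled pair, beside 1507 and 1107 CPM in the wild-type pair (a log2 fold change of −0.83 with SE 0.25 and FDR 0.0819 by edgeR), and Ldha, the muscle subunit, 864 and 553 CPM in the wild-type pair, against 400.2 and 458 CPM in the mutant-labelled pair (edgeR FDR 0.131, with a log2 fold change of −0.72 and an SE of 0.27). Neither was called. Of both per kb of exon, Ldhb made up 78.6% and 80.9% in the wild-type pair, against 78.3% and 78.3% in the mutant-labelled pair. Of the pyruvate carrier subunits, which work as a pair in the inner mitochondrial membrane, Mpc1 had wild-type values of 130.5 and 84.0 CPM and mutant-labelled values of 54.0 and 59.3 CPM (a log2 fold change of −0.92 with SE 0.25 and FDR 0.0612 by edgeR). Mpc2 had 116 and 123 CPM in the mutant-labelled pair, beside 281 and 169.6 CPM in the wild-type pair (edgeR FDR 0.0757, with a log2 fold change of −0.92 and an SE of 0.27). Of both per kb of exon, Mpc2 made up 37.9% and 36.4% in the wild-type pair, against 37.8% and 37.0% in the mutant-labelled pair, with overlapping groups. Its share was 66.9% in wild type replicate 1 when the longest coding transcript sets the length, and with the counts of processed copies added to both subunits, chosen after the data were seen for the coding length, it was 23.9% there by exon length and 50.9% by coding length. Which subunit is the more abundant thus depends on the length used and on where the reads of Mpc1-ps belong.

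Across the 10 isozyme families, 18 shares were compared, of which 16 did not overlap between the groups. Among all genes tested 59.0% did not overlap in CPM, and no such background was formed for shares. The shares of a family sum to the whole, so those compared in the same family are not independent. With 2 libraries a group, the smallest p of the exact permutation test, two-sided, is 0.333, which is its value for each of these 16, and 0.375 after Benjamini-Hochberg adjustment over the 18. The differences in mean share, mutant-labelled less wild type, were −11.81 percentage points for Hk2, −7.79 for Pfkm, −5.45 for Slc16a1 and −3.86 for Slc2a4, all of them called genes. They were 8.05 points for Pfkfb2 and −7.76 for Pfkfb3, neither of them called. For muscle and heart forms of other steps they were −1.04 points for Eno3, −1.44 for Ldhb, 0.66 for Pgam2 and 0.24 for the pyruvate carrier subunit Mpc2.

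**Figure D4:**
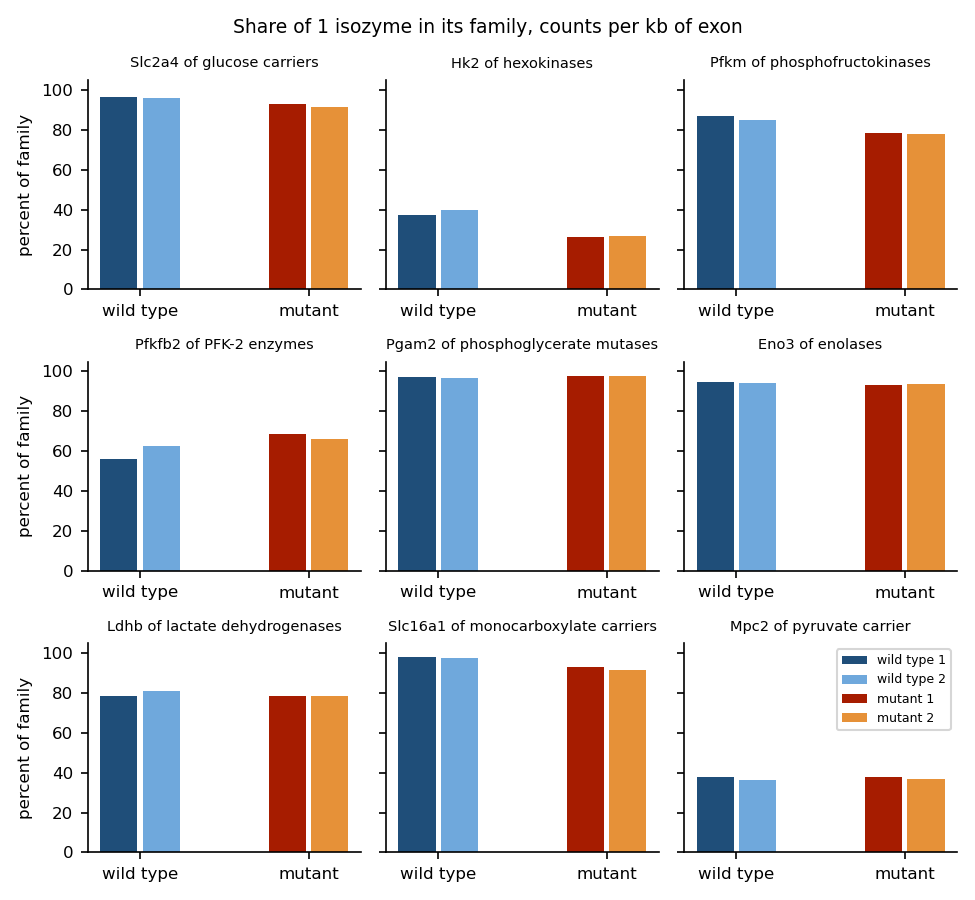
Share of 1 isozyme in its family in each library, from counts per kb of exon, on an axis from 0 to 100 percent. Hk2, Pfkm, Slc2a4 and Slc16a1 are lower in both mutant-labelled libraries, while Pgam2, Eno3, Ldhb and Mpc2 lie within 1.5 percentage points of wild type on average.

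Values relative to cardiomyocyte transcripts were formed after the data were seen, because the summed cardiomyocyte markers stood at 56.7% of their wild-type mean in the mutant-labelled libraries. Per 1000 CPM of those markers, Slc16a1 had 2.21 and 2.31 in the wild-type pair, against 1.78 and 1.60 in the mutant-labelled pair, and Pkm had 13.0 and 11.6 in the wild-type pair, against 9.16 and 9.34 in the mutant-labelled pair. Slc2a4 had 3.22 and 3.21 in the wild-type pair, against 2.83 and 2.62 in the mutant-labelled pair. Pfkm had 7.14 and 7.27 in the wild-type pair, against 6.04 and 5.89 in the mutant-labelled pair, and Hk2 had 1.17 and 1.52 in the wild-type pair, against 1.05 and 1.11 in the mutant-labelled pair. These 5 and Pgam1 were lower without overlap, at 74.8% (Slc16a1) to 98.4% (Pgam1) of the wild-type mean, while Pgk1 overlapped. On this scale 4.05% of all genes tested were lower without overlap and 80.2% higher, and 16 of the 30 genes were higher without overlap, among them Slc16a3 with 0.0586 and 0.0742 in the wild-type pair, against 0.161 and 0.182 in the mutant-labelled pair. Pfkp had 1.12 and 1.53 in the wild-type pair, against 2.42 and 2.24 in the mutant-labelled pair, and Hk1 had 2.83 and 3.27 in the wild-type pair, against 4.16 and 4.31 in the mutant-labelled pair. A fit scaled to the markers called 0 of the 30 lower and 8 higher (edgeR), with Slc16a1 at an FDR of 0.0869 and Pkm at 0.0860. In that fit 7565 of all genes were called higher and 130 lower, which is 49.5% and 0.851% of those tested.

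Among further genes of the pathway few were called. Of 26 further carriers, glycolytic enzymes and lactate genes, 16 were tested, and 0 rose or fell by the edgeR test; 2 had an unadjusted p below 0.05 in each direction, and DESeq2 and limma-voom also called 0. Their median log2 fold change was 0.13. The highest per kb of exon was Bsg, the partner protein that carries Slc16a1 to the membrane, with 2131 and 1576 CPM in the wild-type pair, against 1265 and 1258 CPM in the mutant-labelled pair (a log2 fold change of −0.56 with SE 0.25 and FDR 0.197 by edgeR), followed by Tigar, a phosphatase of the regulatory fructose bisphosphate, with wild-type values of 33.6 and 34.0 CPM and mutant-labelled values of 26.0 and 26.0 CPM (edgeR FDR 0.210). Of 22 genes of the branch routes 19 were tested and 1 fell, which is 5.26% beside 4.58% of all genes tested. It was Fbp2, the muscle fructose bisphosphatase of the reverse pathway. Fbp2 had 8.61 and 10.1 CPM in the mutant-labelled pair, beside 43.5 and 24.1 CPM in the wild-type pair (edgeR FDR 0.0176, with a log2 fold change of −1.86 and an SE of 0.30). The median of that list was −0.04, and 0 rose. In the higher direction 4 had an unadjusted p below 0.05, and DESeq2 and limma-voom called 0. In the lower direction 3 had an unadjusted p below 0.05. Among all 15283 genes tested, 2004 had such a p in the higher direction and 2241 in the lower.

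Among 30 regulators of uptake and glycolysis, all tested, 2 fell, 0 rose and 28 did not pass, with a median of −0.24. In the higher direction 3 had an unadjusted p below 0.05, and DESeq2 called 1 and limma-voom 0. In the lower direction 11 had one. Among all 15283 genes tested, 2004 had such a p in the higher direction and 2241 in the lower. Egln1, the prolyl hydroxylase that marks hypoxia-inducible factors for destruction, had 334 and 274 CPM in the wild-type pair, against 139.8 and 137 CPM in the mutant-labelled pair (a log2 fold change of −1.13 with SE 0.21 and FDR 0.0244 by edgeR). Irs1, a docking protein of the insulin receptor, had wild-type values of 9.72 and 12.6 CPM and mutant-labelled values of 5.03 and 3.83 CPM (edgeR FDR 0.0274, with a log2 fold change of −1.32 and an SE of 0.26). The lower calls were 6.67% of the list beside 4.58% of all genes, and DESeq2 called 9 lower beside 7.92% of the genes with an adjusted p. With library totals alone the medians of the 30 glycolysis genes, the further pathway genes, the branch routes and the regulators were −0.11, 0.51, 0.36 and 0.14, on a scale where the median of all genes was 0.41.

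All 7 called genes were lower in each setting tried. Leaving out wild type replicate 1 gave log2 fold changes from −0.73 (Pgk1) to −1.20 (Hk2), and leaving out wild type replicate 2 from −0.99 (Pgam1) to −1.46 (Pkm). With library totals alone 2 of the 7 were called, Slc16a1 at −0.84 and Pkm at −0.82.

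**Figure D5:**
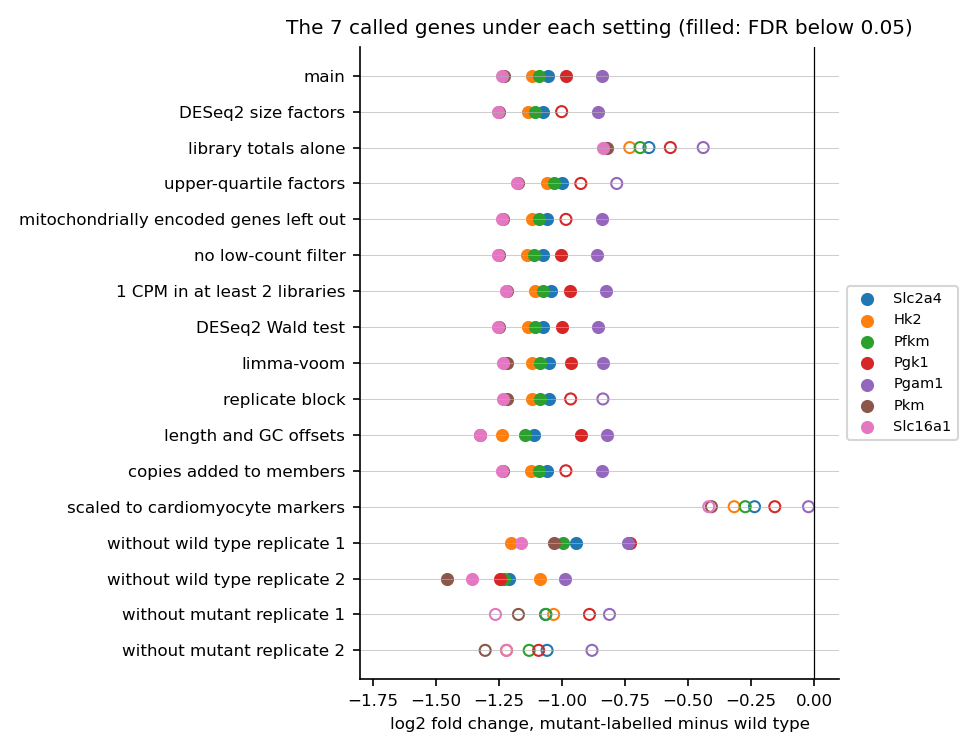
Log2 fold change of the 7 called genes, 1 colour each, in the fit as reported (main) and under each other setting but the FDR of 0.10; filled points have an FDR below 0.05. All points lie below 0; with either mutant-labelled library left out, and when scaled to cardiomyocyte markers, none is filled.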

How the data were processed

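Heart RNA of 2 wild-type and 2 mutant-labelled libraries was sequenced. The authors deposited raw gene counts, whole numbers with no normalization, in 1 table; FastQC, HISAT2 and mm10 are named per the submitters' processing notes, while no counting program is named there. Symbols, positions and exon lengths came from GENCODE M21, which holds 54723 of the 54752 identifiers; the other 29 were kept in the totals, at less than 0.01% of counts. Counts were fitted in R 4.3.3 with edgeR 4.0.16 (filterByExpr, TMM, quasi-likelihood test, genotype only, 2 residual degrees of freedom), with Benjamini-Hochberg adjustment over 15283 genes and a threshold of 0.05. The limit that a count of 0 allows, 3 counts, is between 0.120 and 0.221 CPM. Isozyme shares used counts per kb of exon of the 30 genes alone. Processed copies were found with BLAST 2.17.0. Alternatives were limma 3.58.1 (voom), DESeq2 1.42.0, other scalings and filters, length and GC offsets, a block and leaving out each library. The 30 genes, the lists and the tests were chosen with earlier results of these data known. The rule for named genes took the 30, Carm1, sex-linked genes and up to 4 called genes of each list or its 2 most abundant. It also took markers at 0 and processed copies with at least 5% of the counts of their parent in a library. Gm1840 and Pfkfb4 lie outside it and were named after their values were seen.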

Additional observations from a re-analysis of the deposited data

How the results depend on the processing

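Counts within 1.5 times the reported one, and medians and shares that moved by less than the spread set for them, are not repeated here; where a value moved, the cause was not tested. Calls and signs of single genes were the same for 30 of the 30 with limma-voom, 29 with mitochondrially encoded genes left out or copies added, 28 with upper-quartile factors, 23 with the DESeq2 Wald test, 27 with the block and 20 with library totals alone. With library totals alone, the number called lower was 2 for the 30 genes, 1 for the regulators and 206 for all genes, and the number called higher was 2 for the branch routes, 1 for the regulators and 1189 for all genes. In that fit the median log2 fold change was −0.11 for the 30 genes, 0.51 for the further pathway genes, 0.36 for the branch routes and 0.14 for the regulators. There the sign of single genes changed, with log2 fold changes of 0.18 for Pfkfb3, 0.32 for Slc2a1, 0.21 for Gapdh, 0.050 for Gpi1 and 0.058 for Hk1. With upper-quartile factors, the median log2 fold change was 0.19 for the further pathway genes. Without the low-count filter 26469 genes were tested. The number called lower was then 13 for the 30 genes, 1 for the further pathway genes, 2 for the branch routes, 10 for the regulators and 1461 for all genes. The number called higher was 2 for the regulators and 1169 for all genes. In that fit the median log2 fold change was −0.15 for the branch routes. There the sign of single genes changed, with log2 fold changes of −0.0054 for Pfkp. With the DESeq2 Wald test, the number called lower was 13 for the 30 genes, 9 for the regulators and 1117 for all genes, and the number called higher was 1 for the regulators. There the sign of single genes changed, with log2 fold changes of −0.0035 for Pfkp. At an FDR of 0.10, the number called lower was 11 for the 30 genes, 10 for the regulators and 1411 for all genes, and the number called higher was 1 for the branch routes, 2 for the regulators and 1077 for all genes. With the replicate number as a block, the number called higher was 1 for the regulators. With length and GC offsets, the number called lower was 13 for the 30 genes, 2 for the branch routes, 10 for the regulators and 1824 for all 15283 genes tested. The number called higher was 1 for the branch routes, 2 for the regulators and 1011 for all genes. In that fit the median log2 fold change was 0.021 for the further pathway genes. There the sign of single genes changed, with log2 fold changes of −0.028 for Pfkp. With DESeq2 size factors, the sign of single genes changed, with log2 fold changes of −0.0034 for Pfkp. Scaled to the cardiomyocyte markers, an alternative chosen after seeing the data, the number called lower was 0 for the 30 genes, 0 for the regulators and 130 for all genes, and the number called higher was 8 for the 30 genes, 5 for the further pathway genes, 11 for the branch routes, 12 for the regulators and 7565 for all genes. In that fit the median log2 fold change was 0.31 for the 30 genes, 0.93 for the further pathway genes, 0.78 for the branch routes and 0.56 for the regulators. Over all genes tested that median was 0.83. There the sign of single genes changed, with log2 fold changes of 0.60 for Pfkfb3, 0.74 for Slc2a1, 0.33 for Eno1, 0.14 for Tpi1, 0.63 for Gapdh, 0.47 for Gpi1, 0.11 for Ldha, 0.29 for Aldoa, 0.47 for Hk1, 0.35 for Pfkl, 0.34 for Pgam2 and 0.066 for Eno3. Without division by length, the difference in share, in percentage points, was 1.25 for Slc2a3, −10.16 for Hk2, −13.51 for Pfkm, 9.34 for Pfkp, 1.45 for Pgam2, 2.41 for Eno1, 0.12 for Eno2, −2.53 for Eno3 and 6.42 for Slc16a3. By coding transcript length, the difference in share, in percentage points, was 2.58 for Slc2a1, −8.87 for Hk2, −11.98 for Pfkm, 7.74 for Pfkp, 0.013 for Aldoc, 2.01 for Eno1, 0.072 for Eno2, −2.09 for Eno3 and 6.53 for Slc16a3. The block fit called 6 of the 30 genes lower; Pgk1 (edgeR FDR 0.0748) and Pgam1 (edgeR FDR 0.0701) were not among them, and Bpgm was (edgeR FDR 0.0425). The labels tie no number to a shared animal or batch. Deviations of same-numbered libraries correlated at −0.247, a single value that cannot show whether the numbers pair the samples. Leaving out each library in turn, the number called higher ranged from 0 to 1 for the 30 genes, 0 to 3 for the branch routes, 0 to 4 for the regulators and 221 to 2553 for all genes. Leaving out each library in turn, the number called lower ranged from 0 to 19 for the 30 genes, 0 to 3 for the further pathway genes, 1 to 5 for the branch routes, 0 to 12 for the regulators and 156 to 3126 for all genes. Leaving out each library in turn, the median log2 fold change ranged from −0.75 to −0.37 for the 30 genes, −0.047 to 0.20 for the further pathway genes, −0.20 to 0.057 for the branch routes and −0.37 to −0.16 for the regulators. Leaving out each library in turn, the log2 fold change ranged from −0.025 to 1.03 for Pfkfb2, −0.51 to 0.19 for Pfkfb3, −0.0086 to 0.54 for Pfkfb1, −0.20 to 0.045 for Slc2a1 and −0.10 to 0.081 for Pfkp. Leaving out each library in turn, the difference in share in points ranged from −1.85 to 1.27 for Pfkfb1 and −0.52 to 0.997 for Mpc2. With 2 libraries a group, 1 library decides many calls: no gene of the 30 was called without either mutant-labelled library. Genes with few counts, such as Aldoc and Slc2a3, are limited by depth.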
